A study of Homo sapiens with 8 samples.

Results

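Topoisomerases and tyrosyl-DNA phosphodiesterases were followed by their RNA in SUM159 cells, an established triple-negative breast cancer line. The members were chosen by gene symbol, as the 6 topoisomerase genes TOP1, TOP1MT, TOP2A, TOP2B, TOP3A and TOP3B and the 2 phosphodiesterase genes TDP1 and TDP2, and all 8 were found among the 60595 genes listed in each of the 2 deposited comparison tables. Cells carrying an shRNA against FOXO1 (shFoxO1) and kept in 10 uM olaparib for 3 days, cells carrying a control shRNA (shCon) in the same drug for the same time, and shCon cells in the solvent DMSO for 3 days are the 3 groups with values. The labels list 2 libraries for each of 4 groups, and the fourth group, shFoxO1 in DMSO, was not analysed here, so no difference between shFoxO1 and shCon cells without the drug can be given. The shRNAs were brought in by lentivirus, per the labels' protocol, and how many FOXO1 shRNA sequences were used is not stated in the sources used here. By its design text, the series looked for what might predict the response to PARP inhibition and for genes under FOXO1, STAT3 and TOP2A.

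Each table gives 1 value per gene and group in FPKM, fragments scaled to transcript length and library size, and holds none for single libraries, so levels have no SD here and sequencing depth is unknown. Called genes are those with q of at most 0.05 in the authors' deposited table. No label says that replicate libraries were grown separately, so q may reflect only technical variation between them. Olaparib blocks the DNA repair enzymes PARP1 and PARP2. FOXO1, a forkhead transcription factor that AKT keeps out of the nucleus, was at 17.5 FPKM in shFoxO1 cells and 89.2 FPKM in shCon cells under olaparib, lower in the direction the shRNA label names (q = 0.000244 in the authors' deposited table). In shCon cells FOXO1 was at 87.7 FPKM under olaparib and 54.6 FPKM in DMSO, with no call (q = 0.0966 in the authors' deposited table). Of the markers checked, the mesenchymal genes summed to 2536 FPKM in shFoxO1 cells under olaparib, 3317 FPKM in shCon cells under olaparib and 3404 FPKM in shCon cells in DMSO. With shFoxO1, VIM and SPARC of that list were called lower and FN1 higher, at 559 FPKM in shFoxO1 cells and 379 FPKM in shCon cells. The 4 epithelial markers summed to 208 FPKM, 436 FPKM and 468 FPKM in the same 3 groups, with CDH1 listed at 0 in each and EPCAM at most 0.0543 FPKM. KRT8 was lower with shFoxO1, at 93.7 FPKM against 331 FPKM in shCon cells, and KRT18 was lower with olaparib, at 110 FPKM against 213 FPKM in DMSO. Of the hormone receptor genes PGR was listed at 0 in each group, ESR1 was at most 0.0880 FPKM, and ERBB2 was lower with shFoxO1, at 19.9 FPKM against 33.8 FPKM in shCon cells. The part of these marker differences in the results was not tested. Leukocyte markers summed to 0.334 FPKM in shFoxO1 cells under olaparib, 0.492 FPKM in shCon cells under olaparib and 2.204 FPKM in shCon cells in DMSO, with CD3D, MS4A1 and LYZ listed at 0 in all 3. The endothelial marker PECAM1 was at 1.80 FPKM in shFoxO1 cells and 0.0937 FPKM in shCon cells under olaparib, the sum over PECAM1, VWF and CDH5 being 1.77, 0.0960 and 0.111 FPKM on the scale of the first table in shFoxO1 olaparib, shCon olaparib and shCon DMSO cells, and its part in the results was not tested.

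Topoisomerases relieve the winding stress that replication and transcription put into DNA by cutting the strands and rejoining them, and they stay bound to the cut end through a tyrosine while they work. Type I enzymes cut a single strand, type II enzymes cut both and can pass one duplex through another, which separates sister chromosomes before division. When an enzyme is trapped on its cut, by a drug or by nearby damage, the tyrosyl-DNA phosphodiesterases remove it: TDP1 acts mainly on trapped TOP1 and TDP2 mainly on trapped TOP2.

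Levels were compared between genes in FPKM, which is per length, with the values of the second table divided by 1.017 to bring them to the scale of the first. In shFoxO1 cells under olaparib, TOP1 (38.3 FPKM), TDP2 (38.0 FPKM) and TOP2A (37.5 FPKM) stood close together at the top, and TOP1MT was lowest at 8.77 FPKM. In shCon cells under olaparib TOP2A stood far above the others at 151 FPKM, followed by TOP1 at 41.0 FPKM and TOP2B at 36.8 FPKM, and TDP1 was lowest at 10.1 FPKM. In shCon cells in DMSO TOP1 (40.4 FPKM) and TOP2A (39.3 FPKM) led and TDP1 was lowest at 11.2 FPKM. With 1 value per group, it cannot be said which neighbours in these orders differ beyond the spread between libraries. The 8 genes together summed to 187 FPKM in shFoxO1 cells under olaparib, 300.3 FPKM in shCon cells under olaparib and 185 FPKM in shCon cells in DMSO, and TOP2A alone made up 20.1%, 50.2% and 21.2% of these sums.

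**Figure D1:**
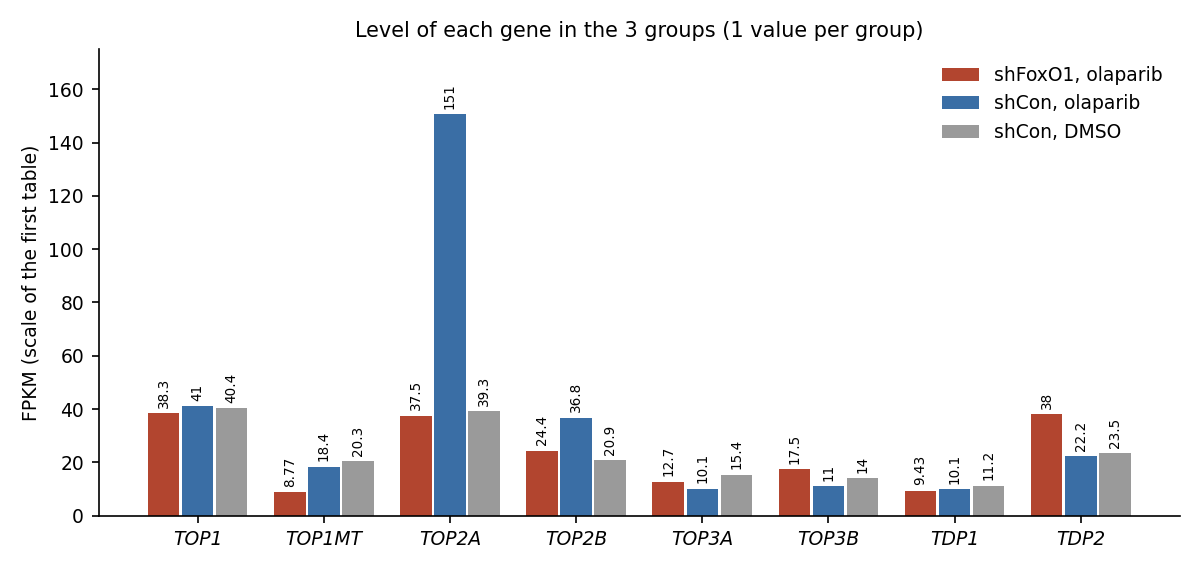
Bars give the FPKM of each of the 8 genes, on the scale of the first table, in shFoxO1 cells under olaparib, shCon cells under olaparib and shCon cells in DMSO, with 1 value per group and no error. TOP2A in shCon cells under olaparib, at 151 FPKM, stands above every other bar, while the TOP1 bars lie between 38.3 and 41.0 FPKM.

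The first comparison set shCon cells under olaparib against shCon cells in DMSO. TOP2A was 3.83-fold higher and TOP2B 1.76-fold higher under the drug, TOP3A was lower, and the other 5 members were not called. Thus 2 of 8 members were called higher and 1 lower, beside 38.7% called among the 14841 genes tested (15.6% higher and 23.1% lower), and the members' share was near this background. The median log2 ratio of the members was -0.11, against -0.07 for all tested genes.

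TOP2A (ENSG00000131747, chromosome 17, 40388525 to 40417896 on the minus strand in GRCh38.p14, the build of all gene positions given here, taken from RefSeq) encodes topoisomerase II alpha, the enzyme of dividing cells that untangles sister chromosomes and the target of etoposide and doxorubicin. It was at 151 FPKM in shCon cells under olaparib and 39.3 FPKM in shCon cells in DMSO. The log2 ratio was 1.94 (q = 0.000284 in the authors' deposited table), and 4.21% of the tested genes with a ratio had one at least as high. By level TOP2A was within the top 3.38% of tested genes under olaparib and the top 20.5% in DMSO. In RNA from whole cultures, more TOP2A RNA per cell and a larger share of cells in the phases that make it cannot be told apart.

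TOP2B (ENSG00000077097, chromosome 3, 25597905 to 25664907) encodes topoisomerase II beta, which cells make whether or not they divide and which acts at transcribed and regulatory DNA. It was at 36.8 FPKM in shCon cells under olaparib and 20.9 FPKM in shCon cells in DMSO (log2 ratio 0.82, with q = 0.000284 by the authors' deposited table). Its rise was thus smaller than that of TOP2A, although the difference between both genes' ratios was not tested. The smallest p in either table was 5e-05, held by TOP2A and TOP2B alike in this comparison, so the p-values do not rank them.

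The starts of TOP2A and TOP2B are shown because they were the members that rose with the drug and fell with shFoxO1. The windows are the 250 bases before the RefSeq start in GRCh38.p14, minus strand, chr17:40417897-40418146 for TOP2A and chr3:25664908-25665157 for TOP2B. Capitals mark the CCAAT box (CCAAT, or ATTGG on the other strand) and the CHR element (TTTGAA, or TTCAAA on the other strand), which is known from promoters of late cell cycle genes.
TOP2A: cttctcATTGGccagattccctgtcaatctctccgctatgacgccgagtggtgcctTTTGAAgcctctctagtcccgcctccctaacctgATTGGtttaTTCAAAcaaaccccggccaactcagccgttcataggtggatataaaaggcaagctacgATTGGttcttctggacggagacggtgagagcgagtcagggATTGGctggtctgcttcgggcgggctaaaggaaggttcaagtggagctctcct
TOP2B: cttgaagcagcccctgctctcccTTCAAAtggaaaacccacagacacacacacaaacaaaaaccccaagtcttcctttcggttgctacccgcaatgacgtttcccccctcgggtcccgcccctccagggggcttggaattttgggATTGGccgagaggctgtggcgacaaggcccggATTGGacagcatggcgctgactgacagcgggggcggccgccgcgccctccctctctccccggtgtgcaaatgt

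The TOP2A window holds 4 CCAAT boxes, and 0.874% of 35116 RefSeq windows of the same length hold at least as many. It also holds 2 CHR matches (at least as many in 1.72% of windows). The TOP2B window holds 2 CCAAT boxes (9.53% of windows hold at least as many) and 1 CHR match (13.3%). Of the other members, TOP1, TOP3A, TOP3B, TDP1 and TDP2 had no CCAAT box in this window, TDP1 had 1 CHR match and TOP1MT was not searched. The forkhead motif GTAAACA (both strands), found in 2.98% of all windows, was matched once, in TDP1. The STAT motif TTCNNNGAA (6.57% of windows) was matched once, in TOP1, and the insulin response element CAAAACA (4.30%) in none of the 7 windows searched. The GC box GGGCGG, in 42.6% of windows, was present in TOP1, TOP2A, TOP2B, TOP3A and TDP2. Each motif was searched only as the letters given, so other forms of these elements may stand in windows without a match. A match describes these letters, and binding was not measured in these data. The part of any motif in the levels was not tested.

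TOP3A (ENSG00000177302, chromosome 17, 18271428 to 18314994), which works with BLM, RMI1 and RMI2 to take apart crossed DNA left by recombination and also acts on mitochondrial DNA, was the member that fell with olaparib. It was at 10.1 FPKM in shCon cells under olaparib and 15.4 FPKM in shCon cells in DMSO (log2 ratio -0.61, with q = 0.0120 by the authors' deposited table). That call is lost at a q of at most 0.01, where 2 members and 28.2% of the tested genes are called. TOP3B (ENSG00000100038, chromosome 22, 21957025 to 21982787), its paralogue, which pairs with TDRD3 and acts on RNA as well as DNA, was at 11.02 FPKM under olaparib and 14.0 FPKM in DMSO, with no call (q = 0.478 in the authors' deposited table).

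TOP1 (ENSG00000198900, chromosome 20, 41028822 to 41124487), the nuclear type I enzyme that travels with RNA polymerase and the target of camptothecin drugs, was at 41.0 FPKM under olaparib and 40.4 FPKM in DMSO (log2 ratio 0.02, with q = 0.959 by the authors' deposited table). TOP1MT, the mitochondrial form, was at 18.4 FPKM under olaparib and 20.3 FPKM in DMSO (q = 0.520 in the authors' deposited table). TDP1 was at 10.1 FPKM under olaparib and 11.2 FPKM in DMSO (q = 0.604 in the authors' deposited table). TDP2 was at 22.2 FPKM under olaparib and 23.5 FPKM in DMSO (q = 0.743 in the authors' deposited table). The log2 ratios of TOP1, TOP1MT, TDP1 and TDP2 were 0.02, -0.14, -0.15 and -0.08, and with quantile normalization they were 0.33, 0.03, -0.10 and 0.13, so that TOP1MT and TDP2 changed sign and TOP1 moved farthest. No interval for a difference can be made from 1 value per group.

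The second comparison set shFoxO1 cells against shCon cells, both under olaparib. TOP2A was 4.02-fold lower, TOP1MT 2.098-fold lower and TOP2B 1.51-fold lower with shFoxO1, and TDP2 was 1.71-fold higher. TOP1, TOP3A, TOP3B and TDP1 were not called. The 4 of 8 members called stand beside 42.4% of the 14660 tested genes (22.6% higher and 19.8% lower), again near the background. At a q of at most 0.01 the same count of 4 members stands beside 31.9%. The median log2 ratio was -0.10 for the members and 0.01 for all tested genes.

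TOP2A was at 38.2 FPKM in shFoxO1 cells and 153 FPKM in shCon cells on the scale of this table (log2 ratio -2.01, with q = 0.000244 by the authors' deposited table), and 5.49% of the tested genes with a ratio had one at least as low. TOP2B was at 24.9 FPKM in shFoxO1 cells and 37.4 FPKM in shCon cells (log2 ratio -0.59, with q = 0.00694 by the authors' deposited table). The shCon olaparib group is the reference here and the treated group of the first comparison, so a rise in the first and a fall in the second rest in part on the same libraries. The same holds for every gene and gene list given below with opposite directions in the comparisons.

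TOP1MT (ENSG00000184428, chromosome 8, 143309324 to 143359977) relaxes the circular genome of mitochondria. It was at 8.93 FPKM in shFoxO1 cells and 18.7 FPKM in shCon cells (log2 ratio -1.07, with q = 0.000244 by the authors' deposited table). Its nuclear paralogue TOP1 was at 39.0 FPKM in shFoxO1 cells and 41.7 FPKM in shCon cells (log2 ratio -0.10, or -0.30 with quantile normalization, and q = 0.792 by the authors' deposited table). TOP1MT was thus the member lower with shFoxO1 whose level had not been called with olaparib.

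TDP2 (ENSG00000111802, chromosome 6, 24649979 to 24666899), which frees 5′ DNA ends from trapped TOP2, was at 38.6 FPKM in shFoxO1 cells and 22.7 FPKM in shCon cells (log2 ratio 0.77, with q = 0.000244 by the authors' deposited table). It moved up while both TOP2 genes moved down. TDP1 (ENSG00000042088, chromosome 14, 89954968 to 90044764), which frees 3′ ends from trapped TOP1, was at 9.59 FPKM in shFoxO1 cells and 10.2 FPKM in shCon cells (q = 0.755 in the authors' deposited table).

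TOP3A was at 12.9 FPKM in shFoxO1 cells and 10.3 FPKM in shCon cells (log2 ratio 0.33, with q = 0.341 by the authors' deposited table). TOP3B was at 17.8 FPKM in shFoxO1 cells and 11.2 FPKM in shCon cells (log2 ratio 0.67), a larger ratio than that of TOP2B that was not called (p = 0.0497, q = 0.102 in the authors' deposited table). The table lists TOP3B with a region that also takes in AC245452.1 and PPM1F, a protein phosphatase gene that was lower with shFoxO1 at 10.8 FPKM against 17.0 FPKM in shCon cells (q = 0.0351 in the authors' deposited table). TOP1 is listed with the region of PLCG1 and ZHX3, neither called in either comparison. How reads of such neighbours were divided is not given in the sources used here. No other tested gene shares the region listed for the remaining 6 members. Untested genes share those of TOP2B (7), TOP3A (2), TOP1MT (1) and TOP2A (1). Among those of TOP2B, RARB was at most 0.616 FPKM in any group. The TOP3B pseudogene TOP3BP1 was at most 0.0896 FPKM in any group.

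**Figure D2:**
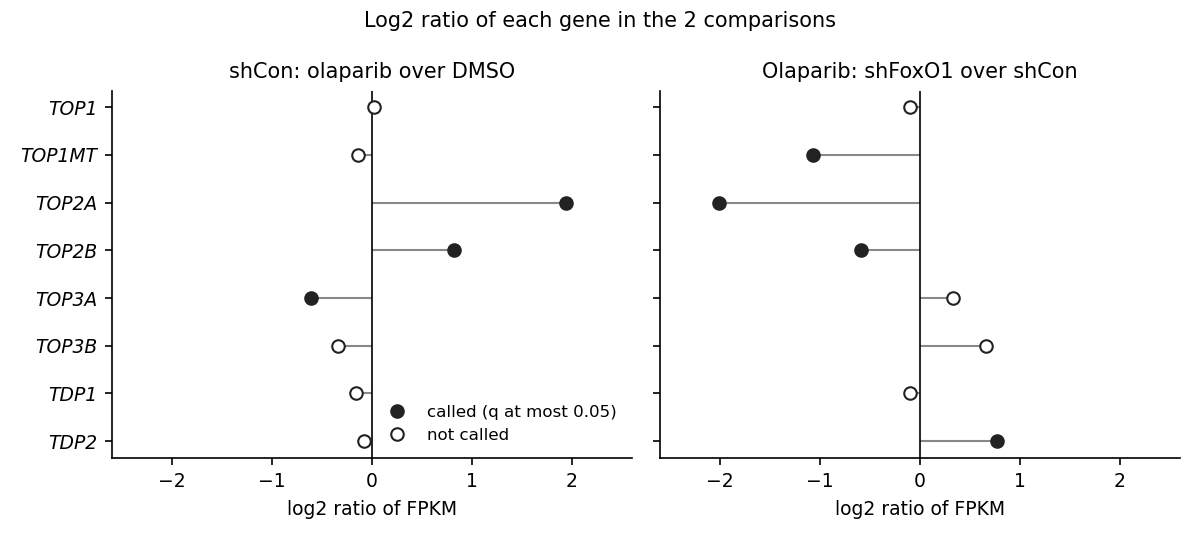
Points give the log2 ratio of FPKM of each gene, for olaparib over DMSO in shCon cells on the left and shFoxO1 over shCon under olaparib on the right, filled where the gene is called by the authors' deposited table. TOP2A lies at 1.94 on the left and -2.01 on the right, and TOP1 at 0.02 and -0.10. The panels share the shCon olaparib group.

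No test sets shFoxO1 cells under olaparib against shCon cells in DMSO, since these groups stand in separate tables, and their values are given side by side on the scale of the first table. TOP2A was at 37.5 FPKM in shFoxO1 cells under olaparib and 39.3 FPKM in shCon cells in DMSO, a log2 ratio of -0.07 that turns to 0.02 with quantile normalization of the 3 groups. TOP2B was at 24.4 FPKM in shFoxO1 cells under olaparib and 20.9 FPKM in shCon cells in DMSO (log2 ratio 0.23). The members farthest apart were TOP1MT, at 8.77 FPKM in shFoxO1 cells under olaparib and 20.3 FPKM in shCon cells in DMSO (log2 ratio -1.21), and TDP2, at 38.0 FPKM and 23.5 FPKM in the same order of groups (log2 ratio 0.69). TOP3A, TOP3B, TDP1 and TOP1 had log2 ratios of -0.28, 0.33, -0.25 and -0.08, that of TOP1 turning to 0.02 with the same normalization.

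The balance within each pair of related genes was read from FPKM. TOP2A made up 60.6% of the summed TOP2A and TOP2B FPKM in shFoxO1 cells under olaparib, 80.4% in shCon cells under olaparib and 65.3% in shCon cells in DMSO. TOP1 made up 81.4%, 69.0% and 66.5% of TOP1 plus TOP1MT in the same 3 groups, the first of these with the lower TOP1MT. TOP3A made up 42.1%, 47.9% and 52.5% of TOP3A plus TOP3B. TDP2 made up 80.1%, 68.8% and 67.7% of TDP1 plus TDP2. TDP2 RNA stood at 1.01 times TOP2A RNA in shFoxO1 cells under olaparib and 0.148 times in shCon cells under olaparib. In shCon cells in DMSO it stood at 0.599 times TOP2A RNA. TOP2B RNA stood at 0.644, 1.65 and 0.888 times TDP2 RNA in the same order of groups. TDP1 stood at 0.246, 0.246 and 0.277 times TOP1 in those groups. None of these shares and ratios has a test.

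**Figure D3:**
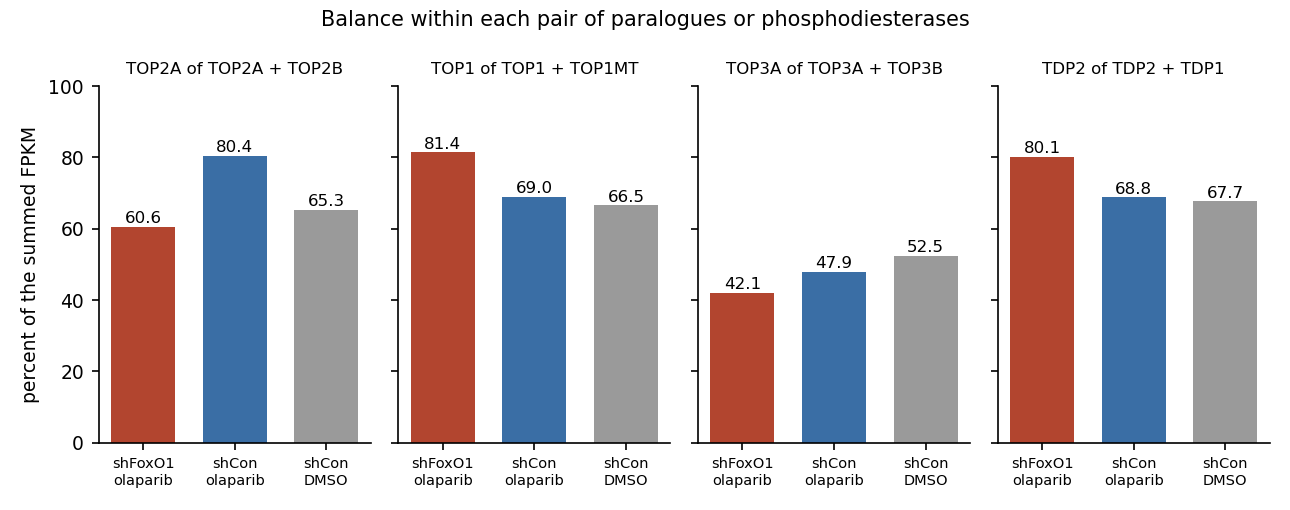
Bars give the percent that the first named gene takes of the summed FPKM of a pair, in shFoxO1 cells under olaparib, shCon cells under olaparib and shCon cells in DMSO, with 1 value per group. TOP2A takes 80.4% in shCon cells under olaparib, against 60.6% and 65.3% in the others, while TOP1 and TDP2 take their largest shares, 81.4% and 80.1%, in shFoxO1 cells.

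TOP2A is a gene of the G2 and M phases, so it was set beside 29 other tested genes of these phases. With olaparib, 19 of the 29 were called higher and none lower, beside 15.6% higher and 23.1% lower among all tested genes, with a median log2 ratio of 0.66. The spindle pole gene ASPM was at 18.5 FPKM under olaparib and 3.57 FPKM in DMSO, and HMMR, which codes for a spindle-associated hyaluronan receptor, was at 49.7 FPKM under olaparib and 12.2 FPKM in DMSO. MKI67, the Ki-67 gene, was at 42.4 FPKM under olaparib and 13.2 FPKM in DMSO, and DLGAP5, a spindle protein, at 17.9 FPKM and 6.97 FPKM. CCNB1, AURKA and PLK1 were among the 10 not called, with log2 ratios of -0.07, -0.09 and -0.17. TOP2A had a higher ratio than 25 of the 29, and CENPF, ASPM, CENPE and HMMR lay above it. With shFoxO1 under olaparib, 23 of the 29 were called lower and none higher, beside 19.8% lower and 22.6% higher among all tested genes, with a median of -1.11. BIRC5, the survivin gene, was at 20.01 FPKM in shFoxO1 cells and 92.1 FPKM in shCon cells, and UBE2C, a ubiquitin-conjugating enzyme of mitotic exit, at 63.0 FPKM and 198 FPKM in that order. The TOP2A ratio was lower than those of 24 of the 29, and CENPF, KIF20A, MKI67, BIRC5 and HMMR lay below it. KIF20A, a kinesin of cytokinesis, was at 12.2 FPKM in shFoxO1 cells and 76.4 FPKM in shCon cells.

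Of 24 S phase genes, 10 were called higher and 1 lower with olaparib. The 11 called stand beside 38.7% of all tested genes (15.6% higher and 23.1% lower). The S phase genes had a median log2 ratio of 0.32, or 0.66 with quantile normalization. Among the higher ones was ORC1, a subunit of the origin recognition complex, at 29.5 FPKM under olaparib and 8.72 FPKM in DMSO. CDT1, which licenses replication origins, was at 118 FPKM and 54.5 FPKM in that order, and CLSPN, a checkpoint adaptor, at 6.20 FPKM and 2.71 FPKM. The gene that was lower was the helicase subunit MCM7, at 74.3 FPKM under olaparib and 106 FPKM in DMSO. At a q of at most 0.01 the higher ones came to 4 and the lower to 0, beside 28.2% called among all tested genes. With shFoxO1, 14 of 24 were called lower and 1 higher (median -0.68), beside 42.4% of all tested genes (19.8% lower and 22.6% higher). The transcription factor gene E2F1 was at 9.28 FPKM in shFoxO1 cells and 33.9 FPKM in shCon cells. TYMS, the thymidylate synthase gene, was at 35.8 FPKM and 107 FPKM in that order. CCNE1, the cyclin of S phase entry, was the gene that was higher, at 7.88 FPKM in shFoxO1 cells and 5.44 FPKM in shCon cells, a call that is lost at a q of at most 0.01.

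Condensin and cohesin rings shape and hold the chromosomes that topoisomerase II untangles. With olaparib, 7 of their 13 subunit genes were called higher and none lower (median log2 ratio 0.68), beside 38.7% called among all tested genes. Among them were SMC4, at 83.1 FPKM under olaparib and 30.8 FPKM in DMSO, and NCAPG, at 25.7 FPKM and 9.68 FPKM in that order. With shFoxO1, 9 of 13 were called lower and none higher (median -0.68), beside 42.4% of all tested genes (19.8% lower and 22.6% higher). At a q of at most 0.01 the lower ones came to 5, beside 31.9% called among all tested genes. The cohesin gene SMC3 was called in both, at log2 ratios of 0.68 with olaparib and -0.44 with shFoxO1, as was RAD21 (0.79 and -0.76). NCAPD2 was at 29.5 FPKM in shFoxO1 cells and 113 FPKM in shCon cells. SMC2, which rose with olaparib, was not called with shFoxO1 (log2 ratio 0.20).

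Among 7 tested partners of the topoisomerases, 4 were called higher and none lower with olaparib (median log2 ratio 0.64), and none was called higher and 3 lower with shFoxO1 (median -0.48). The 3 of 7 called with shFoxO1 are near the 42.4% called among all tested genes (19.8% lower). The 4 of 7 with olaparib stand beside 38.7% (15.6% higher). At a q of at most 0.01 they came to 2 with olaparib and 1 with shFoxO1, beside 28.2% and 31.9% of all tested genes. RMI1 and RMI2, which join TOP3A in its complex, were higher with the drug while TOP3A was lower. RMI2 was at 35.1 FPKM under olaparib and 15.2 FPKM in DMSO, and RMI1 at 18.5 FPKM and 10.3 FPKM in that order. With shFoxO1, RMI1 was lower, at 13.4 FPKM against 18.8 FPKM in shCon cells, and RMI2 was not called (log2 ratio -0.65). TOPBP1, a checkpoint protein that binds topoisomerase II, and TOPORS, a ligase that binds TOP1, had log2 ratios of 0.96 and 0.64 with olaparib and were not called with shFoxO1. BLM, the helicase of the TOP3A complex, was not called with olaparib (log2 ratio 0.38) and was lower with shFoxO1, at 3.49 FPKM against 6.09 FPKM in shCon cells. TDRD3, the partner of TOP3B, was called in neither comparison. SPO11, the meiotic relative of the topoisomerases, was listed at 0 in all groups, and its partner TOP6BL, listed as C11orf80, was lower with shFoxO1 at 2.51 FPKM against 5.91 FPKM.

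Other genes that clear proteins from DNA did not move in a single direction. With olaparib, 4 of 23 were called higher and 8 lower (median log2 ratio -0.15, or -0.01 with quantile normalization), beside 15.6% and 23.1% of all tested genes. At a q of at most 0.01 these were 2 and 6, beside 28.2% called among all tested genes. With shFoxO1, 6 were higher and 3 lower (median 0.15, which turns to -0.09 with quantile normalization), and the 9 called are near the 42.4% called among all tested genes. ZNF451, a SUMO ligase that helps TDP2 act on trapped TOP2, was at 16.4 FPKM under olaparib and 8.98 FPKM in DMSO. With shFoxO1 it was not called, at 11.3 FPKM against 16.7 FPKM. XRCC1, a scaffold of single-strand break repair that acts with TDP1, was lower with shFoxO1, at 15.6 FPKM against 36.0 FPKM in shCon cells. VCP, an unfoldase that extracts trapped proteins, was at 77.1 FPKM under olaparib and 110 FPKM in DMSO. In the second table VCP was at 134 FPKM in shFoxO1 cells and 78.5 FPKM in shCon cells. PARP1, the target of olaparib, was at 51.1 FPKM under olaparib and 73.7 FPKM in DMSO and was not called with shFoxO1 (log2 ratio 0.02). UCHL3, a deubiquitinase that stabilises TDP1, was at 8.56 FPKM under olaparib and 30.8 FPKM in DMSO. In the second table UCHL3 was at 47.5 FPKM in shFoxO1 cells and 8.70 FPKM in shCon cells, the highest ratio in the list, whereas TDP1 was not called in either comparison. The regions listed for some genes of these lists, UCHL3 and TOPBP1 among them, extend past the RefSeq gene. How reads there were divided is not given in the sources used here. SLX4, a nuclease scaffold, was higher with olaparib and lower with shFoxO1 (log2 ratios 1.15 and -1.31), and the proteasome shuttle DDI2 was lower with olaparib and higher with shFoxO1 (-0.69 and 1.03). FAM111A, a protease, was higher with olaparib (0.99) and was not called with shFoxO1 (-0.16).

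Genes that keep the mitochondrial genome, where TOP1MT works, were mostly on the other side of 0 from TOP1MT in the second comparison. With shFoxO1, 6 of 11 were called higher and 1 lower (median log2 ratio 0.81), beside 22.6% higher and 19.8% lower among all tested genes. SSBP1, the mitochondrial single-strand binding protein, was at 286 FPKM in shFoxO1 cells and 105 FPKM in shCon cells, and POLRMT, the mitochondrial RNA polymerase, at 38.0 FPKM and 21.6 FPKM in that order. TEFM, a transcription elongation factor, had a log2 ratio of 1.33 there. The gene that was lower, as TOP1MT was, was the primase PRIMPOL, at 6.70 FPKM in shFoxO1 cells and 14.4 FPKM in shCon cells. With olaparib, 5 of 11 were called lower and 1 higher (median -0.41), beside 23.1% lower and 15.6% higher among all tested genes. TFB2M, a mitochondrial transcription factor, was at 7.79 FPKM under olaparib and 20.8 FPKM in DMSO, and TWNK, the mitochondrial helicase, at 12.9 FPKM and 30.9 FPKM in that order. The higher gene was again PRIMPOL, at 14.1 FPKM under olaparib and 6.99 FPKM in DMSO. Both calls on PRIMPOL are lost at a q of at most 0.01.

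**Figure D4:**
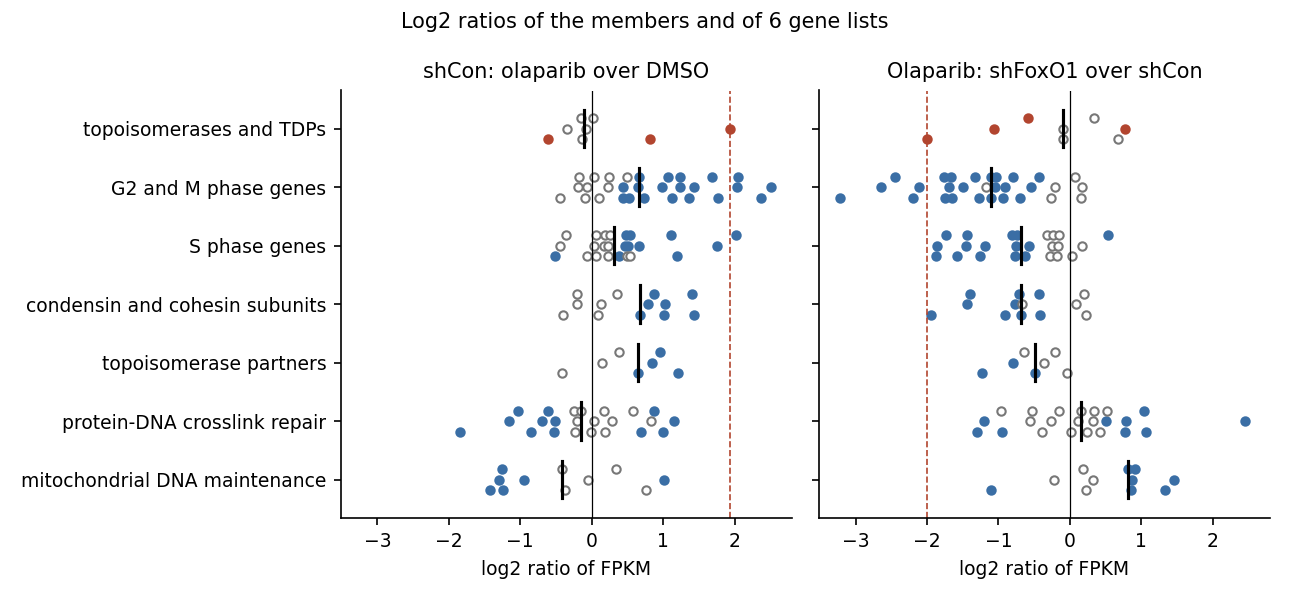
Each point is a tested gene, placed by its log2 ratio of FPKM for olaparib over DMSO in shCon cells (left) or shFoxO1 over shCon under olaparib (right), filled where called and open where not. Black bars are medians and the dashed line marks TOP2A. Both panels use the shCon olaparib group, so opposite signs on left and right rest in part on the same libraries. The G2 and M phase row has its median at 0.66 on the left and -1.11 on the right, and 4 and 5 of its 29 points lie beyond TOP2A.

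Likeness to a member was measured as the distance in the plane of both log2 ratios, which is a comparison over 3 groups only. The search took in 10969 genes tested in both tables with a mean of at least 1 FPKM. It was limited to symbols that RefSeq lists as protein-coding and that are not repeated. The 5 genes nearest to TOP2A were SPTLC3, AGBL2, RGS12, SYNGR1 and SLC25A27, at distances of 0.0443 to 0.0818 log2 units. All were called higher with olaparib and lower with shFoxO1, directions that follow from how they were picked. SLC25A27, a mitochondrial carrier, was the most abundant of them, at 9.48 FPKM in shFoxO1 cells under olaparib, 40.2 FPKM in shCon cells under olaparib and 10.4 FPKM in shCon cells in DMSO. AGBL2 was at 0.504, 2.06 and 0.557 FPKM in the same order of groups. None of the 5 is among the G2 and M phase genes listed here. HMMR of that list had log2 ratios of 2.03 with olaparib and -2.11 with shFoxO1, where TOP2A had 1.94 and -2.01. The 5 nearest to TOP2B were PBLD, AGAP5, CASD1, DDX6 and ACADSB, at distances of 0.0132 to 0.0351. Of these DDX6, an RNA helicase of mRNA decay, and ACADSB were called in both comparisons, and PBLD, AGAP5 and CASD1 in neither.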

How the data were processed

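Directional paired-end libraries were made from total RNA depleted of ribosomal RNA, per the labels' protocols, which describe 2 sequencing platforms without saying which applies. The submitters' processing notes list CASAVA 1.4, HISAT2 2.1.0, Cufflinks 2.2.1 and hg38, giving no role for any. Per the file headers, the authors' tables hold FPKM for each gene and group, and their test statistic is taken as a score. The authors also deposited a p-value and q-value per gene. Whether both libraries of a group entered a value is not stated. Recomputing the adjustment by the method of Benjamini and Hochberg over tested genes gave the authors' q-values within 5.22e-07.

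Calls are the authors' q-values at 0.05, since 1 value per group allows no fit of its own. Log2 ratios were computed from FPKM with no pseudocount (pandas 2.3.3, numpy 2.4.6). The second table was divided by 1.017, the median ratio of its shCon olaparib values to the first table's over 13688 genes. The adjustment and quantile normalization were tested on simulated data. No columns of other samples were present (0 left out).

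The members, gene lists and motifs were chosen with earlier results of these data known. Named are the 8 members, FOXO1 and STAT3, the 4 tested genes of each list with the smallest p (ties by the statistic) in either table, exceptions, and the 5 nearest genes in pattern. TOP3B and TOP1 neighbours, CCNB1, AURKA, PLK1, the genes beyond TOP2A, TDRD3, ZNF451, UCHL3 and the cell type markers were named after their values were seen. STAT3, not called in either comparison, was at 30.4 FPKM under olaparib and 38.6 FPKM in DMSO, and at 38.0 FPKM with shFoxO1 and 30.9 FPKM with shCon. RefSeq promoter sequences matched 7 of 8 members. TOP1P1 and TOP1P2 were not analysed here.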

Additional observations from a re-analysis of the deposited data

How the results depend on the processing

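The direction of all 7 calls on members (3 with olaparib, 4 with shFoxO1) held with a pseudocount of 1 or 0.1 FPKM, with centring on the median of all tested genes and with quantile normalization, and the calls held with the p-values adjusted over every listed gene or over the tested genes that average 1 FPKM or more. At a q of at most 0.01, 2 and 4 members were called, TOP3A (q = 0.0120 in the authors' deposited table) being lost. Quantile normalization turned the sign of 2 members that were not called with olaparib, TOP1MT to 0.0342 and TDP2 to 0.127, and of the crosslink repair median with shFoxO1, to -0.0868. It moved the median of S phase genes with olaparib to 0.658, that of crosslink repair genes to -0.00879, and TOP1 to 0.328 with olaparib and -0.298 with shFoxO1. Between shFoxO1 cells under olaparib and shCon cells in DMSO, an alternative chosen after seeing the data, quantile normalization of the 3 groups, put TOP1 at 0.0231 and TOP2A at 0.0218, so neither has a direction there. Under it TOP2A made up 60.8%, 81.2% and 64.4% of the summed TOP2 FPKM in shFoxO1 cells under olaparib, shCon cells under olaparib and shCon cells in DMSO. The total of called genes in a list fell by over 1.5 times in 4 cases. Adjusted over every listed gene, topoisomerase partners came to 2 with olaparib and 1 with shFoxO1, S phase genes with olaparib to 5 and condensin and cohesin genes with shFoxO1 to 5. At a q of at most 0.01 these were 2, 1, 4 and 5. At that bar 28.2% of all tested genes were called with olaparib and 31.9% with shFoxO1. By direction, the crosslink repair genes higher with olaparib came to 2 under either setting, the lone S phase genes lower with olaparib and higher with shFoxO1 were lost under both, and PRIMPOL was lost in both comparisons at a q of at most 0.01 and with shFoxO1 also when adjusted over every listed gene. The cause was not tested, beyond the stricter bar that these settings set by construction.

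No paired analysis was possible because the deposited tables hold 1 value per group and none per library, and leaving out a library was not possible for the same reason. Depth is unknown, so no detection limit is given.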
